A study of Mus musculus with 12 samples.

Results

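Integrins are cell-surface receptors made of 1 alpha and 1 beta subunit, and a subset of them recognises the tripeptide arginine-glycine-aspartate (RGD) in matrix and plasma proteins. The 8 genes described here encode RGD-binding subunits: the alpha subunits Itga8, Itgav and Itga5, and the beta subunits Itgb1, Itgb3, Itgb5, Itgb6 and Itgb8. They were taken as a fixed list of symbols matched to Ensembl identifiers, 8 of the 49585 genes in the files, and all 8 were found. The products of Itga8 and Itga5 pair with that of Itgb1. The product of Itgav, also called CD51, pairs with each of the 5 beta subunits. In bone and marrow stroma these receptors anchor cells to fibronectin, osteopontin, vitronectin and related proteins, and alpha v with beta 6 or beta 8 also activates latent TGF-beta.

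RNA was sequenced from 4 stromal populations sorted from wild-type male C57BL/6 mice aged 8 to 10 weeks at steady state, with 3 libraries of 2000 cells each. All 4 populations were gated as CD45-, Ter119- and CD31-. The Itga8+ MSCs (Itga8+Alcam+Sca-1-), the Itga8-Alcam+ BLCs, which the labels call osteoblasts, and the Sca-1+ MSCs came from bone fragments digested with collagenase after the marrow had been flushed out. The name BLC abbreviates bone lining cell. The CD51+CD140a+ MSCs came from flushed marrow digested with another enzyme mix, so that for this population tissue compartment, digestion and cell type cannot be told apart. The labels number the libraries 1 to 3 but do not say whether they came from separate mice or pools, and p-values then measure the spread between these libraries, which may be technical. Itga8 and CD51 were themselves used for sorting, so a high Itga8 in Itga8+ MSCs, a low Itga8 in Itga8-Alcam+ BLCs and the presence of Itgav in the CD51+ gate check the labels and are not findings. The Itga8 contrast that neither gate used is the one between Sca-1+ and CD51+CD140a+ MSCs.

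The total count per library ranged from 17580677 to 31332475, and the level worth 3 counts, used as the floor, from 0.0820 to 0.180 CPM (counts scaled to library size by the TMM method). The sort genes followed the gates. Ly6a, the gene of Sca-1, lay at 611 to 659 CPM in Sca-1+ MSCs and at no more than 35.7 CPM elsewhere. Pdgfra, the gene of CD140a, lay at 682 to 867 CPM in CD51+CD140a+ MSCs and also at 734 to 1019.5 CPM in Sca-1+ MSCs. Alcam reached only 1.29 to 5.04 CPM in Itga8+ MSCs and 3.83 to 5.82 CPM in Itga8-Alcam+ BLCs, but no more than 0.221 CPM in the other populations. Ptprc, the gene of CD45, lay at 3.54 to 31.6 CPM and Pecam1, the gene of CD31, at 2.39 to 12.2 CPM over all libraries, so neither was at 0 despite the gates.

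Before the results, 2 libraries have to be named. Replicate 2 of the Itga8+ MSCs and replicate 3 of the Itga8-Alcam+ BLCs had 32.4% and 33.7% of their counts on genes with more than 4000 exonic bases, against 49.6% to 64.9% in the other 10 libraries. Their mitochondrial shares were 0.546% and 0.359%, against 0.0570% to 0.0996%. In Itga8+ MSCs replicate 2, 14 listed leukocyte markers summed to 8011 CPM, against 178 to 2600 CPM in all other libraries. Ptprc, which is among them, lay at only 12.7 to 17.3 CPM over the Itga8+ MSC libraries, so not every listed marker rose with the sum. The 8 subunit genes have 3553 (Itgb5) to 11060 (Itgb8) exonic bases, and all but Itgb5 exceed 4000. Within Itga8+ MSCs, 7 of the 8 subunits were lowest in replicate 2 and 7 were highest in replicate 3. Within Itga8-Alcam+ BLCs, 7 of the 8 were highest in replicate 2, while the doubted replicate 3 was lowest for 4, as was replicate 1 for the other 4. The values without both libraries, an alternative chosen after the data had been seen, are given beside the calls and directions they change, and the part of RNA quality or of other cells in those results was not tested.

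**Figure D1:**
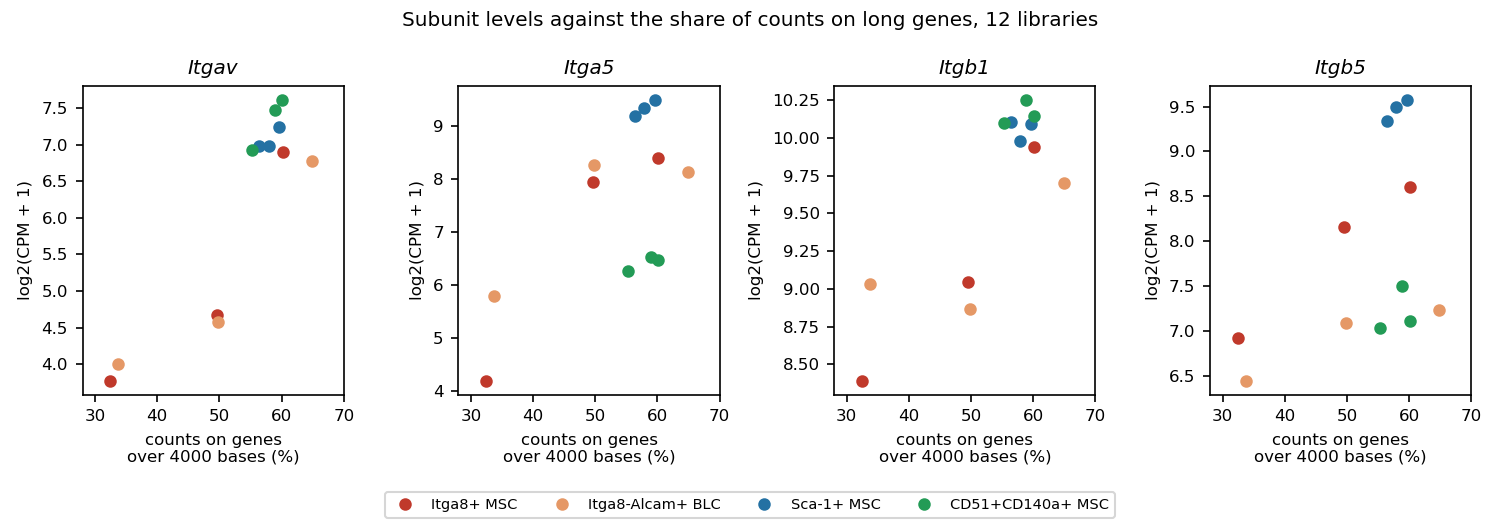
Level of 4 subunits, as log2(CPM + 1), against the percentage of each library's counts on genes with more than 4000 exonic bases; each point is 1 of the 12 libraries, coloured by population. The libraries at 32.4% and 33.7% held the lowest Itgav, Itga5 and Itgb5 values of their populations, while the Sca-1+ and CD51+CD140a+ libraries lay together at 55.3% to 60.1%. For Itgb1 only the library at 32.4% held the lowest value of its population.

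By the mm10 assembly (GRCm38, GENCODE M21 annotation), Itga8 spans chr2:12106632-12301922 on the minus strand, Itgav chr2:83724397-83806916 on the plus strand and Itga5 chr15:103344286-103366763 on the minus strand. Itgb1 spans chr8:128685654-128733200 (plus), Itgb3 chr11:104608000-104670476 (plus) and Itgb5 chr16:33829665-33949338 (plus). Itgb6 spans chr2:60598292-60722643 (minus) and Itgb8 chr12:119158022-119238802 (minus). Of the exonic bases of Itga8, 5.05% lie opposite the gene E030013I19Rik, and of those of Itgav 5.90% lie opposite Gm13684. The counting was not stated to use strand, so reads in these stretches cannot be told apart. The exons of the other 6 genes overlap no other annotated gene.

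The 250 bases before the RefSeq start site (GRCm38.p6) are shown for 3 subunits with contrasting patterns: Itga8, which was high in Itga8+ and CD51+CD140a+ MSCs, and Itga5 and Itgb5, which were both highest in Sca-1+ MSCs. Capitals mark matches on either strand to the GC box GGGCGG or the E-box CANNTG. The windows are chr2:12301945-12302194 (minus) for Itga8, chr15:103366792-103367041 (minus) for Itga5 and chr16:33829415-33829664 (plus) for Itgb5, each written in the direction of its gene.
Itga8: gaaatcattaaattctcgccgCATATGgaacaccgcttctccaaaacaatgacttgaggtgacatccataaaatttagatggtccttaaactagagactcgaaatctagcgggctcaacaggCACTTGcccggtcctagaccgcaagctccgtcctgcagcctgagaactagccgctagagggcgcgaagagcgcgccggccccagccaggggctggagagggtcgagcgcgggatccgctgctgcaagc
Itga5: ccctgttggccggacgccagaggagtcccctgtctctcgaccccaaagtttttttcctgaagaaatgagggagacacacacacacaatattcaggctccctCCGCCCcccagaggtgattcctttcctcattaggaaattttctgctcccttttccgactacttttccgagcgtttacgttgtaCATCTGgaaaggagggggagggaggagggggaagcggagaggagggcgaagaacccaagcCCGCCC
Itgb5: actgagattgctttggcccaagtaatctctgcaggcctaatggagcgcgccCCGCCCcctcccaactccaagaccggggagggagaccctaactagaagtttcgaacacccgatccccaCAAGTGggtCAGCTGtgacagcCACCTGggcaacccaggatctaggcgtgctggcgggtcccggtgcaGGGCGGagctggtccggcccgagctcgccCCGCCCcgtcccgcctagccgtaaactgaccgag
The Itga8 window held 2 E-boxes and no GC box, the Itga5 window 1 E-box and 2 GC boxes, and the Itgb5 window 3 of each. Of the 32851 windows of this length in the table, 66.2% held an E-box and 32.7% a GC box. The 3 windows held no match to the TATA box TATAAA, to CCAAT or to the AP-1 motif TGANTCA, which 12.4%, 33.85% and 6.75% of all windows held. These matches describe the letters only.

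Differences between populations were tested with edgeR's quasi-likelihood model over the 18648 genes that reached 0.5 CPM in at least 1 library, with CPM for this filter taken over the library total without TMM scaling. Itgb6 passed this filter through replicates 1 and 2 of the Sca-1+ MSCs alone (0.509 and 0.650), so it entered the tests through the population in which it is highest. Counts that involve it are given over the other 7 subunits or are marked as including it. Calls required an FDR, that is a p-value adjusted by the Benjamini-Hochberg method over all genes tested, under 0.1 together with more than a 2-fold difference, and all tests were two-sided. Over the 4 populations together, 6 of the 7 subunits other than Itgb6 differed at this FDR, against 47.5% of all genes. Itga8, whose levels in the Itga8-sorted populations were set by the gates, is among these 6. Itgav (FDR = 0.175) and Itgb6 (FDR = 0.128) did not differ. Over all 8 subunits the count was also 6, and it was 5 without both doubted libraries. With each library left out in turn it ranged from 4 (without any one of Sca-1+ MSCs replicates 1 and 2 and the 3 CD51+CD140a+ libraries) to 8 (without Itga8-Alcam+ BLCs replicate 2). It was 4 at an FDR under 0.05 and 7 by DESeq2 or with library totals alone. The 6 comparisons of populations share libraries and are not independent of each other.

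Sca-1+ MSCs and CD51+CD140a+ MSCs, the populations with the least spread between libraries, differed in 5 of the 7 subunits other than Itgb6, against 20.5% of all genes called. The subunits Itga5, Itgb3, Itgb5 and Itgb8 were higher in Sca-1+ MSCs and Itga8 was lower. Itgb6 passed the thresholds too, which made 6 calls, and without replicate 2 of the CD51+CD140a+ MSCs 3 subunits were called. The libraries of both populations did not overlap for 5 of the 7, against 45.9% of all genes. Itga8+ MSCs and Sca-1+ MSCs differed in 3 subunits, against 21.7% of all genes, namely Itgb3 and Itgb5, lower in Itga8+ MSCs, and Itga8, whose higher level there was set by the gate. Without Itga8+ MSCs replicate 3 that count was 7, while the count over all genes rose from 4055 to 5878. With 1 of the Sca-1+ libraries left out, the count over all genes was 2386 to 2642 and 2 or 3 subunits were called. The libraries did not overlap for 6 of the 7, against 37.6% of all genes. Itga8-Alcam+ BLCs and Sca-1+ MSCs differed in 2, Itgb3 and Itgb5, both lower in the BLCs, against 26.4% of all genes. That count was 5 without Itga8-Alcam+ BLCs replicate 2 and 1 without replicate 1 or 3 of the BLCs or replicate 1 or 2 of the Sca-1+ MSCs. No overlap of libraries was seen for 5 subunits, against 45.7% of all genes.

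Itga8-Alcam+ BLCs and CD51+CD140a+ MSCs also differed in 2 subunits, Itgb8, higher in the BLCs, and Itga8, whose low level there was set by the gate, against 35.3% of all genes. There the count was 4 without Itga8+ MSCs replicate 2, which is in neither population, and 4 without Itga8-Alcam+ BLCs replicate 2. The libraries did not overlap for 4 subunits, against 49.8% of all genes. Itga8+ MSCs and CD51+CD140a+ MSCs differed in 1 subunit, Itgb8, against 35.6% of all genes. The count was 3 without Itga8+ MSCs replicate 2 or 3, and 2 without Itga8-Alcam+ BLCs replicate 2. Libraries did not overlap for 3 subunits, against 44.4% of all genes. Itga8+ MSCs and Itga8-Alcam+ BLCs differed in 1, the sort gene Itga8, against 3.82% of all genes, and in 2 without Itga8+ MSCs replicate 2. The count over all genes there was 712, and 433 without Itga8-Alcam+ BLCs replicate 3. Only Itga8 had libraries that did not overlap there, against 14.2% of all genes. The median log2 fold change of the 7 subunits other than Itgb6 was 2.25 for Sca-1+ over CD51+CD140a+ MSCs, with Itgb8 as fitted or at its bound, against 0.00 for all genes, and it was -1.37 for Itga8+ over Sca-1+ MSCs, against 0.16. It was -1.46 for the BLCs over Sca-1+ MSCs, against 0.12, and 0.67 for Itga8+ over CD51+CD140a+ MSCs, against 0.18. For the BLCs over CD51+CD140a+ MSCs it was -0.27, against 0.09, and for Itga8+ MSCs over the BLCs 0.02, against 0.08.

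**Figure D2:**
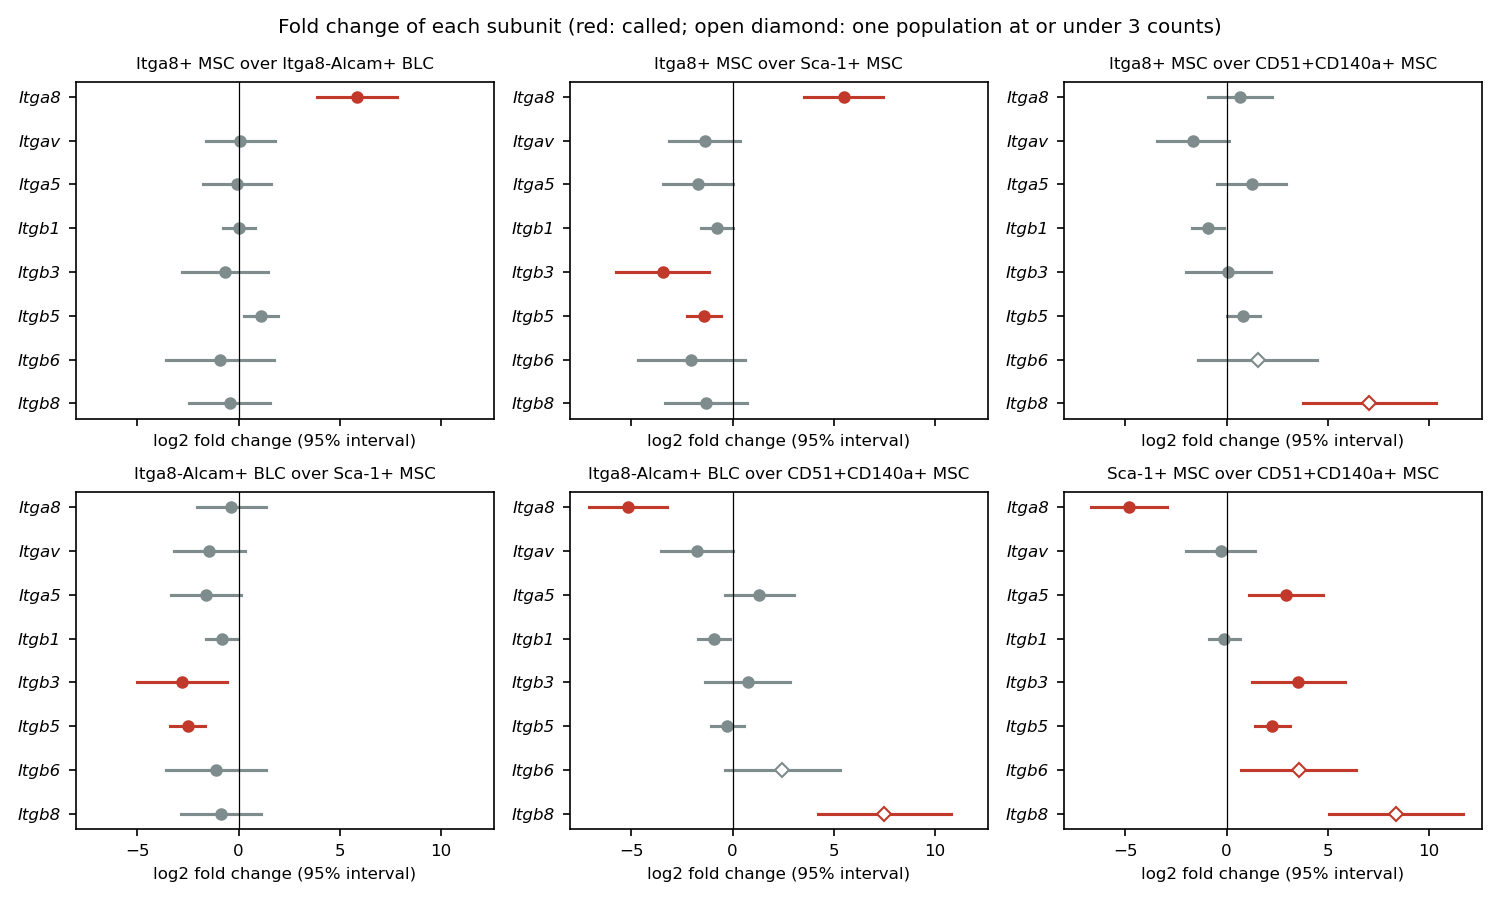
Log2 fold change with its 95% interval for each of the 8 subunits in the 6 comparisons of populations, from the edgeR fit; red marks called differences and open diamonds a population in which every library had 3 counts or fewer. More red points lie in the comparison of Sca-1+ with CD51+CD140a+ MSCs than in any other panel, since 6 subunits, Itgb6 among them, were called there, and only Itga8 is red between Itga8+ MSCs and Itga8-Alcam+ BLCs.

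Among the alpha subunits, Itga8 encodes the integrin subunit that, with beta 1, binds nephronectin and fibronectin. Its level was 73.5, 35.2 and 199 CPM in the 3 Itga8+ MSC libraries, 57.0, 82.9 and 53.1 CPM in CD51+CD140a+ MSCs, 2.88, 2.09 and 1.87 CPM in Sca-1+ MSCs, and 0.398, 4.17 and 0.659 CPM in Itga8-Alcam+ BLCs. In this RNA sequencing the libraries formed a high pair of populations and a low pair, with no overlap between the pairs, unlike the study's qPCR described below. The sort check, Itga8+ MSCs over Itga8-Alcam+ BLCs, gave a log2 fold change of 5.86 (SE 0.91, FDR = 0.00420), of 4.95 without Itga8+ MSCs replicate 3 and of 7.62 without Itga8-Alcam+ BLCs replicate 2. CD51+CD140a+ MSCs, whose gate did not use Itga8, had 28.2-fold more Itga8 RNA than Sca-1+ MSCs (log2 fold change of Sca-1+ over CD51+CD140a+ MSCs -4.82, SE 0.87, FDR = 0.00188). In such bulk libraries more cells with the transcript and more transcript per cell cannot be told apart.

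Itga8+ and CD51+CD140a+ MSCs did not differ in Itga8 beyond their spread. The log2 fold change was 0.67 with a 95% interval of -0.92 to 2.26 (FDR = 0.503), and it was -0.24 without Itga8+ MSCs replicate 3. The study itself reported much less Itga8 in CD51+CD140a+ MSCs than in Itga8+ MSCs, by qPCR for RNA and by flow cytometry for protein. The interval here is wide and does not exclude a lower level in CD51+CD140a+ MSCs. Relative to Itgb1, its beta partner, in the same library, Itga8 TPM (counts divided by exonic length, then scaled to a common total) was 7.71%, 5.81% and 11.2% of Itgb1 TPM in Itga8+ MSCs, and 2.79%, 4.19% and 2.42% in CD51+CD140a+ MSCs. These ratios did not overlap, but Itga8+ MSCs were sorted for Itga8, so the gate had a part in this. An exact two-sided permutation test of 3 against 3 libraries gave p = 0.1, the smallest it can give (0.12 after adjustment over the 6 comparisons). It could therefore not fall under 0.1 and decides nothing. The ratio was at most 0.278% in the other populations. It was chosen after the values had been seen. Itga8-Alcam+ BLCs and Sca-1+ MSCs did not differ in Itga8 beyond their spread (FDR = 0.772), although without Itga8-Alcam+ BLCs replicate 2 the lower level in BLCs was called (log2 fold change -2.15, FDR = 0.0516). The gate of the BLCs excluded Itga8, so that call is not a finding. The log2 fold change was 0.013 without both doubted libraries, against -0.37 with all.

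Itgav, the common alpha partner of the 5 beta subunits, was present in every library. It lay at 195, 121 and 177 CPM in CD51+CD140a+ MSCs, the population sorted for its product, and at 126, 150 and 126 CPM in Sca-1+ MSCs, which were not. The Itga8+ MSC libraries had 24.4, 12.7 and 118 CPM, and those of the Itga8-Alcam+ BLCs 22.8, 108 and 15.0 CPM. Each of these populations thus held a single library near the Sca-1+ level and 2 libraries far lower. No comparison of Itgav was called. The log2 fold change over CD51+CD140a+ MSCs was -1.67 in Itga8+ MSCs (95% interval -3.43 to 0.10, FDR = 0.137), -1.75 in Itga8-Alcam+ BLCs (-3.52 to 0.01, FDR = 0.122) and -0.29 in Sca-1+ MSCs (-2.01 to 1.42, FDR = 0.889). Scaling by library totals brought a call of lower Itgav against CD51+CD140a+ MSCs in Itga8+ MSCs (-1.82, FDR = 0.0889) and in Itga8-Alcam+ BLCs (-2.19, FDR = 0.0456), and so did DESeq2 (FDR = 0.0867 and 0.0664). In the BLCs a fit of only the 6 libraries compared (FDR = 0.0769) and the looser filter of 1 count (FDR = 0.0909) did so too. Itgav was called lower than in CD51+CD140a+ MSCs in Itga8+ MSCs without their replicate 3 (log2 fold change -3.14, FDR = 0.0101) or without Itga8-Alcam+ BLCs replicate 2 (-1.65, FDR = 0.0764). It was called lower in Itga8-Alcam+ BLCs without their replicate 2 (-3.12, FDR = 0.0143), or without Itga8+ MSCs replicate 2 (FDR = 0.0660) or 3 (FDR = 0.0490). Against Sca-1+ MSCs it was called lower in Itga8+ MSCs without their replicate 3 (-2.88, FDR = 0.0216). In Itga8-Alcam+ BLCs that call came without their replicate 2 (-2.87, FDR = 0.0271) or without Itga8+ MSCs replicate 3 (-1.50, FDR = 0.0990).

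Itga5 encodes the alpha subunit of the classical fibronectin receptor. It was highest in Sca-1+ MSCs, at 646, 714 and 578 CPM, and lay at 87.5, 75.4 and 91.5 CPM in CD51+CD140a+ MSCs, a 7.62-fold difference (log2 fold change 2.93, SE 0.84, FDR = 0.0302). Without CD51+CD140a+ MSCs replicate 2 the FDR was 0.1005 with a log2 fold change of 2.85. The Itga8+ MSC libraries had 244, 17.4 and 337 CPM, and those of the Itga8-Alcam+ BLCs 306, 278 and 54.5 CPM. All 6 of these libraries lay below the Sca-1+ libraries, while the low ones, replicate 2 and replicate 3 respectively, are those with few counts on long genes. Without both, Itga5 was called lower than in Sca-1+ MSCs in Itga8+ MSCs (log2 fold change -1.13, FDR = 0.00397) and in Itga8-Alcam+ BLCs (-1.14, FDR = 0.00284). It was then also called higher than in CD51+CD140a+ MSCs in both, with log2 fold changes of 1.80 (FDR = 8.5e-05) and 1.79 (FDR = 8.8e-05). The log2 fold change between Itga8+ MSCs and the BLCs was -0.094 with all libraries and 0.016 without both. With all libraries, none of these 4 differences from Sca-1+ or CD51+CD140a+ MSCs was called in the edgeR fit (FDR = 0.164, 0.171, 0.249 and 0.222). Some calls came without leaving out a doubted library. Lower Itga5 than in Sca-1+ MSCs was called in Itga8+ MSCs by DESeq2 (-1.70, FDR = 0.0921) and with trends with length and GC content removed (-1.82, FDR = 0.0622), and in the BLCs with those trends removed (-1.64, FDR = 0.0728) and in a fit of only the 6 libraries compared (-1.63, FDR = 0.0592). Higher Itga5 than in CD51+CD140a+ MSCs was called in the BLCs in such a fit (1.32, FDR = 0.0996). Of the single libraries left out, Itga8+ MSCs replicate 2 gave 3 of the 4 calls (FDR = 0.0246 and 0.0448 over CD51+CD140a+ MSCs, and 0.0243 for the BLCs against Sca-1+ MSCs), and Itga8+ MSCs replicate 3 gave the fourth (FDR = 0.0880).

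**Figure D3:**
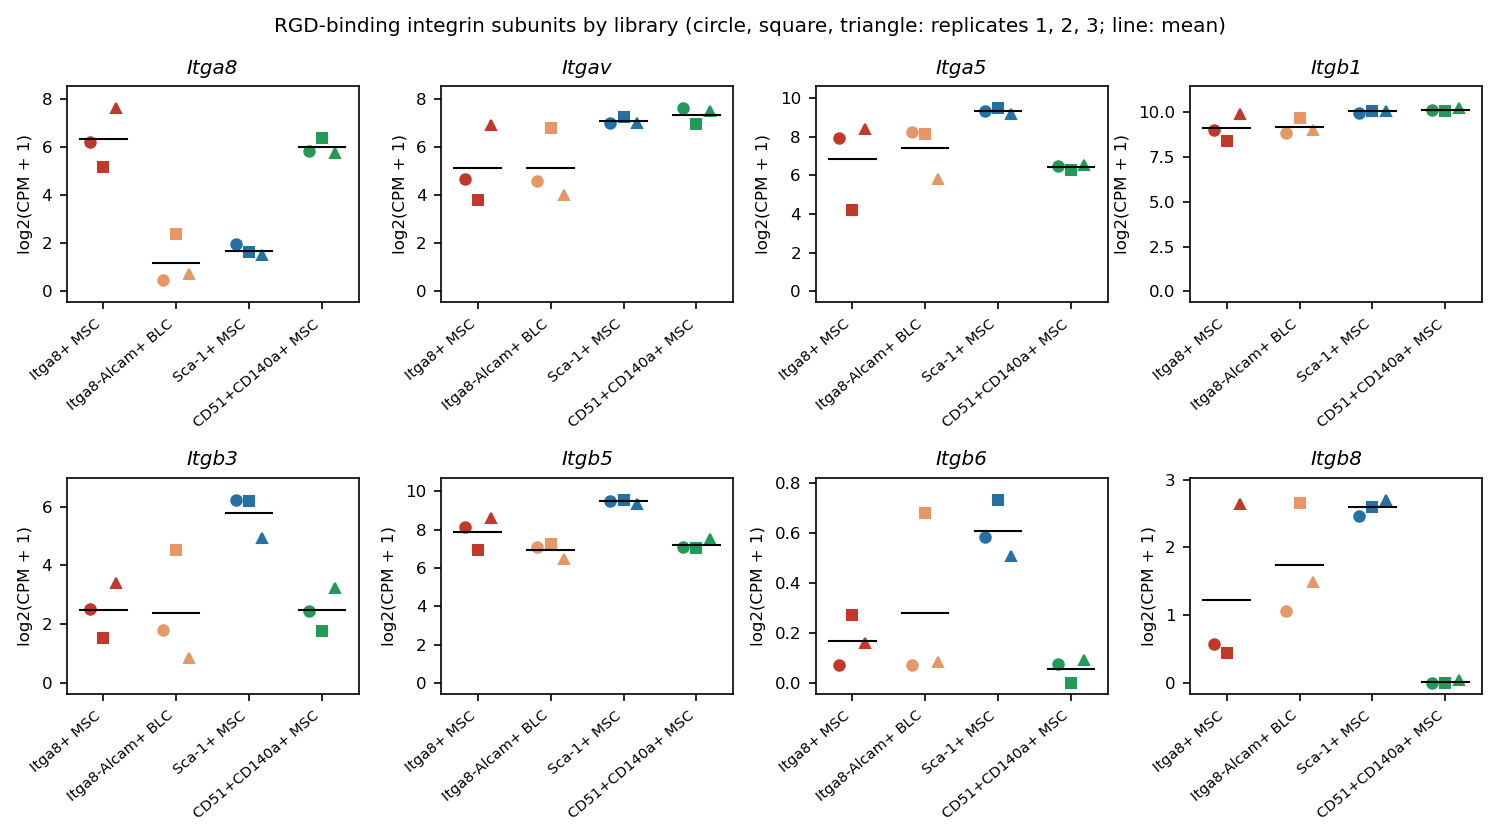
Level of each subunit in each of the 12 libraries, as log2(CPM + 1), by population; circles, squares and triangles are replicates 1, 2 and 3 and the line is their mean, and the vertical scale differs between panels. Itga8 was high in Itga8+ and CD51+CD140a+ MSCs, Itga5, Itgb3 and Itgb5 were highest in all 3 Sca-1+ libraries, and Itgb8 was at or near 0 in CD51+CD140a+ MSCs.

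Among the beta subunits, Itgb1, the partner of alpha 5, alpha 8 and many other alpha subunits, was the most abundant. Its level was 1132, 1096 and 1217 CPM in CD51+CD140a+ MSCs, 1008, 1090 and 1100 CPM in Sca-1+ MSCs, 465, 830 and 522 CPM in Itga8-Alcam+ BLCs, and 528, 335 and 982 CPM in Itga8+ MSCs. All 6 libraries of the Itga8-sorted populations were below all 6 of the others. No fold change exceeded 2, so none was called, the FDR being 0.0814 for Itga8+ MSCs and 0.0754 for Itga8-Alcam+ BLCs against CD51+CD140a+ MSCs. The difference passed both thresholds in Itga8+ MSCs without their replicate 3, at a log2 fold change of -1.34 from Sca-1+ MSCs (FDR = 0.0165) and -1.41 from CD51+CD140a+ MSCs (FDR = 0.00833). It did so in the BLCs without their replicate 2, at -1.16 (FDR = 0.0592) and -1.22 (FDR = 0.0386). Scaling by library totals alone also brought the BLCs past both thresholds, at -1.06 (FDR = 0.0450) and -1.31 (FDR = 0.0129), and Itga8+ MSCs against CD51+CD140a+ MSCs at -1.02 (FDR = 0.0433).

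Itgb5, which pairs with alpha v to bind vitronectin, showed the clearest pattern of the beta subunits. It lay at 721, 760 and 649 CPM in Sca-1+ MSCs, above every other library. Itga8+ MSCs had 284, 121 and 388 CPM, CD51+CD140a+ MSCs 137, 130 and 180 CPM, and Itga8-Alcam+ BLCs 135, 150 and 86.3 CPM. Sca-1+ MSCs exceeded Itga8+ MSCs 2.69-fold (FDR = 0.0276), CD51+CD140a+ MSCs 4.77-fold (FDR = 0.00159) and Itga8-Alcam+ BLCs 5.74-fold (FDR = 0.00113). These calls held in all alternatives, including each library left out and both doubted libraries left out.

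Between Itga8+ MSCs and Itga8-Alcam+ BLCs, Itgb5 had a log2 fold change of 1.10 (SE 0.38, 95% interval 0.26 to 1.93, FDR = 0.220), which was not called. With all libraries kept, DESeq2 called it (1.11, FDR = 0.0710), as did the fit with length and GC trends removed (1.15, FDR = 0.0482). Without Itga8+ MSCs replicate 2 the log2 fold change was 1.46 (FDR = 0.0156), and without both doubted libraries it was 1.26 (FDR = 0.0197). Against CD51+CD140a+ MSCs, Itga8+ MSCs had a log2 fold change of 0.83 (FDR = 0.119), of 1.20 without their replicate 2 (FDR = 0.00830) and of 1.20 without both doubted libraries (FDR = 0.00166). CD51+CD140a+ MSCs and Itga8-Alcam+ BLCs did not differ beyond their spread (FDR = 0.617, 95% interval of the log2 fold change -1.09 to 0.55).

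Itgb3, the beta subunit of the alpha v beta 3 receptor and of the platelet fibrinogen receptor, was much less abundant. It lay at 75.1, 72.6 and 29.9 CPM in Sca-1+ MSCs. The Itga8+ MSC libraries had 4.75, 1.87 and 9.53 CPM, the BLC libraries 2.49, 22.3 and 0.779 CPM, and the CD51+CD140a+ libraries 4.40, 2.38 and 8.44 CPM. The Sca-1+ libraries lay above the other 9. Sca-1+ MSCs exceeded Itga8+ MSCs 11.0-fold (log2 fold change of Itga8+ over Sca-1+ MSCs -3.46, SE 1.05, FDR = 0.0443), Itga8-Alcam+ BLCs 6.91-fold (FDR = 0.0700) and CD51+CD140a+ MSCs 11.7-fold (FDR = 0.0359). No call was secure to the loss of a library. The call against Itga8+ MSCs was lost without their replicate 1 (FDR = 0.113) or 2 (FDR = 0.104) and without Sca-1+ MSCs replicate 1 (FDR = 0.104) or 2 (FDR = 0.109). The call against the BLCs was lost without their replicate 1 (FDR = 0.187) or 3 (FDR = 0.141) and without Sca-1+ MSCs replicate 1 (FDR = 0.150) or 2 (FDR = 0.151). The call against CD51+CD140a+ MSCs was lost without their replicate 1 (FDR = 0.117) or 2 (FDR = 0.126). With the replicate number as a block, the calls against Itga8+ MSCs (FDR = 0.101) and the BLCs (FDR = 0.108) were lost as well. The direction was kept in each case, but the size moved. The log2 fold change of the BLCs over Sca-1+ MSCs went from -2.79 to -5.20 without BLC replicate 2 (FDR = 0.00348), and that of Itga8+ over Sca-1+ MSCs from -3.46 to -4.19 without Itga8+ MSCs replicate 3 (FDR = 0.0352). DESeq2 did not call Itgb3 between the BLCs and Sca-1+ MSCs.

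Itgb3 is also expressed by platelets and osteoclasts. Summed over 10 platelet markers, the level was 23.0 to 29.4 CPM in Sca-1+ MSCs, with Gp6 and Treml1 at 0, against 16.3 to 52.3 CPM in the other libraries. Summed over 9 osteoclast markers it was 577 to 768 CPM in Sca-1+ MSCs, 659 to 898 CPM in Itga8+ MSCs, 774 to 1079 CPM in Itga8-Alcam+ BLCs and 208 to 286 CPM in CD51+CD140a+ MSCs. The osteoclast sum, like Itgb3, was higher in Sca-1+ than in CD51+CD140a+ MSCs, while the Itga8-sorted populations had less Itgb3 and an osteoclast sum that overlapped or exceeded that of Sca-1+ MSCs. The part of such cells in the Itgb3 levels was not tested.

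Itgb8, which pairs with alpha v to bind latent TGF-beta, was rare but uneven. Sca-1+ MSCs had 4.54, 5.04 and 5.53 CPM from 82 to 118 counts, and CD51+CD140a+ MSCs had 0, 0 and 1 count. Itga8+ MSCs had 0.495, 0.364 and 5.26 CPM, and Itga8-Alcam+ BLCs 1.10, 5.33 and 1.80 CPM, so that the Itga8-sorted populations again spread widely. Against the level of 3 counts in a CD51+CD140a+ library, at most 0.0967 CPM, Itgb8 was at least 52.1-fold higher in Sca-1+ MSCs (FDR = 0.00126), at least 28.4-fold higher in Itga8-Alcam+ BLCs (FDR = 0.00186) and at least 21.1-fold higher in Itga8+ MSCs (FDR = 0.00283). These 3 calls held in all alternatives, but the sizes for the Itga8-sorted populations rest on 1 library each. Without Itga8+ MSCs replicate 3 Itgb8 was at least 4.44-fold higher, and without Itga8-Alcam+ BLCs replicate 2 at least 15.0-fold higher. The 3 populations from bone fragments were not told apart by Itgb8 (FDR = 0.335 to 0.941), except that it was called lower in Itga8+ than in Sca-1+ MSCs without Itga8+ MSCs replicate 3 (FDR = 0.0129). Itgb8 is expressed by epithelia too. A set of 8 epithelial markers summed to 1.45 to 2.82 CPM in Sca-1+ MSCs and 0.383 to 4.25 CPM in CD51+CD140a+ MSCs, but to 14.3 to 31.4 CPM in the Itga8-sorted libraries. The part of such cells in the Itgb8 levels was not tested.

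Itgb6, a subunit mostly of epithelia, was at the edge of detection. The Sca-1+ libraries had 9, 13 and 9 counts, the Itga8+ MSC libraries 1, 4 and 2, the BLC libraries 1, 13 and 1, and the CD51+CD140a+ libraries 2, 0 and 2. Its highest level was 0.661 CPM, and it passed the filter on low values through 2 libraries of the Sca-1+ MSCs, the population in which it was then called higher. Sca-1+ MSCs were at least 5.45-fold above the floor of CD51+CD140a+ MSCs (FDR = 0.0726). The call was lost without any single one of these 6 libraries (FDR = 0.116 to 0.170), with the replicate number as a block (FDR = 0.142) or with the looser filter (FDR = 0.1003), so this difference is not secure at this depth.

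The make-up of the receptor RNA within a library was compared by TPM, as a description without a test. Of the summed TPM of the 3 alpha subunits, the Itga8+ MSCs had 30.6% ± 17.7 (SD, n = 3) as Itga8 and the CD51+CD140a+ MSCs 21.5% ± 7.14, against 0.548% ± 0.407 for the BLCs and 0.216% ± 0.0503 for the Sca-1+ MSCs. Itga5 took most of the remainder in the populations from bone fragments, with 60.5% ± 21.7 in Itga8+ MSCs, 89.6% ± 6.39 in the BLCs and 91.1% ± 0.414 in Sca-1+ MSCs. CD51+CD140a+ MSCs had the largest Itgav share, 36.8% ± 6.18 against 8.68% to 9.84% on average elsewhere, and its range of 29.8% to 41.6% lay above every other library. Itgav is the gene of CD51, so this share is a check of the gate and not a finding. The same holds for the Itga8 shares of the Itga8-sorted populations, and the Itga5 shares are what Itga8 and Itgav leave of the total. Within Itga8+ MSCs the Itga8 share was 16.2% to 50.3%. The highest value belonged to the replicate with few counts on long genes, and without it the mean was 20.8%.

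Of the summed TPM of the 5 beta subunits, Itgb1 and Itgb5 together made up nearly all. The Itgb1 share fell in the order CD51+CD140a+ MSCs (86.9% ± 1.52, SD, n = 3), BLCs (80.0% ± 4.71), Itga8+ MSCs (66.8% ± 4.66) and Sca-1+ MSCs (55.4% ± 3.02). The corresponding Itgb5 shares were 12.9% ± 1.38, 19.2% ± 4.93, 32.7% ± 4.66 and 42.3% ± 2.15. Those of Itga8+ MSCs, 29.2% to 38.0%, did not overlap those of any other population, in spite of the spread of their Itgb5 levels. Itgb3 reached 2.12% ± 0.882 in Sca-1+ MSCs and averaged under 1% in the other populations, and Itgb6 and Itgb8 together were minor everywhere.

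**Figure D4:**
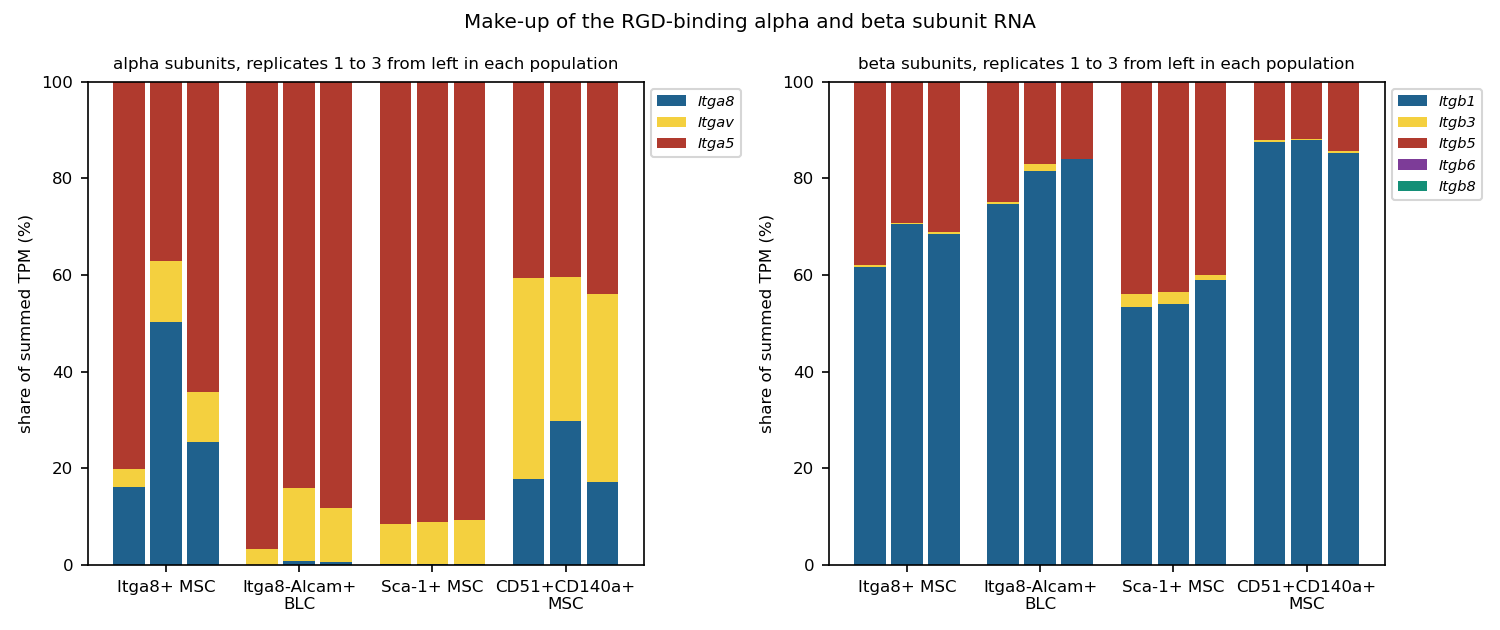
Share, in percent, of each subunit in the summed TPM of the 3 alpha subunits (left) and of the 5 beta subunits (right); each bar is 1 library, grouped by population. Itga8+ MSCs had an average Itga8 share of 30.6%, CD51+CD140a+ MSCs had 21.5%, and the share was under 1% in the other libraries. Itga8 in the Itga8-sorted populations and Itgav in CD51+CD140a+ MSCs were sort markers. The Itgb5 share rose from 12.9% on average in CD51+CD140a+ MSCs to 42.3% in Sca-1+ MSCs.

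The genes whose log2(CPM + 1) followed a subunit most closely over the 12 libraries were sought among 11017 genes with a mean of at least 5 CPM. They are given as a description, since the points share populations and library quality. For Itga8 these were E030013I19Rik (Pearson r = 0.951), Kctd18 (0.920) and Ak5 (0.894), the first being the gene on the opposite strand named above. For Itgav they were 2700016F22Rik (0.996), Pi4ka (0.992) and Snrnp200 (0.990), and for Itgb1 Scamp1 (0.989), Mtmr2 (0.988) and Rcor1 (0.983). For Itga5 they were Zdhhc8 (0.977), Ttc7 (0.969) and Gas2l1 (0.962). For Itgb5 they were Tmem43 (0.983), Gm38317 (0.981) and Eps8 (0.978), and for Itgb3 Dock11 (0.951), Akap13 (0.943) and Fam129a (0.942). For Itgb8 they were Mical2 (0.972), Gm17122 (0.964) and Adgrd1 (0.961), and for the rare Itgb6 Mier1 (0.896), Casr (0.865) and Rprd1a (0.862). Among the subunits themselves, Itgav and Itgb1 followed each other most closely (r = 0.971), and Itgb3 and Itgb5 had r = 0.874. Itga8 had its highest r with another subunit at 0.214, with Itgav.

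RGD-containing ligands were read from a list of 29 symbols, of which 28 were in the files and 26 were tested. Between Itga8+ MSCs and Itga8-Alcam+ BLCs, 3 ligands were called higher and 2 lower in Itga8+ MSCs, 19.2% of those tested against 3.82% of all genes, and their median log2 fold change was 0.14. Mfap4 is a microfibril-associated protein that the study singled out in these same libraries, so its difference is not independent evidence. It was at 449 ± 142 CPM against 20.7 ± 7.19 CPM (SD, n = 3, log2 fold change 4.44, FDR = 0.000482). Fbln5, an elastic fibre protein, was also higher (log2 fold change 2.19, FDR = 0.00137), while the mineralised-matrix proteins Dmp1 (-13.44, FDR = 2.6e-05) and Ibsp (-3.89, FDR = 0.000715) were lower.

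Between Sca-1+ and CD51+CD140a+ MSCs, where most subunits differed, 6 ligands were called higher and 8 lower in Sca-1+ MSCs, against 20.5% of all genes. Of those tested, Fga and Fgg had no count in either population, and the 14 called ligands were 58.3% of the other 24. Of these 24, 12 had a log2 fold change above 0 and 12 below. Fn1, fibronectin, was at 16645 ± 3998 CPM in Sca-1+ MSCs and at 45.4 ± 20.6 CPM in CD51+CD140a+ MSCs (log2 fold change 8.52, FDR = 0.000461), the populations with the most and the least Itga5 on average. Fn1 was at 5498 ± 6862 CPM in Itga8+ MSCs and 1865 ± 2144 CPM in Itga8-Alcam+ BLCs. Mfap4 (log2 fold change 7.82, FDR = 3.3e-06) and Egfl6 (4.92, FDR = 0.00416) were also higher in Sca-1+ MSCs, and Ibsp was lower (-4.42, FDR = 3.5e-05). Npnt, nephronectin, named here for its known binding to alpha 8 beta 1 with its values already seen, was at 11.7 ± 9.21 CPM in Itga8+ MSCs, 28.5 ± 10.4 CPM in Itga8-Alcam+ BLCs, 13.8 ± 4.70 CPM in CD51+CD140a+ MSCs and 6.60 ± 2.03 CPM in Sca-1+ MSCs. Its level differed between the BLCs and Sca-1+ MSCs (log2 fold change 2.11, FDR = 0.0591) but was not called between Itga8+ MSCs and any other population (FDR = 0.431 to 0.817).

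The other 18 integrin subunits of the mouse include those that bind collagen, laminin or leukocyte ligands, and also the platelet marker Itga2b given above. Between Sca-1+ and CD51+CD140a+ MSCs, 4 were called higher and 2 lower in Sca-1+ MSCs, 33.3% of those tested against 20.5% of all genes, with a median log2 fold change of 0.91. Itga2, a collagen receptor subunit, was at 20.4 ± 7.38 CPM against 0.326 ± 0.474 CPM (SD, n = 3, FDR = 0.00203), and Itga6, a laminin receptor subunit, at 31.3 ± 8.29 CPM against 3.03 ± 0.724 CPM (FDR = 0.00341). In the opposite direction, Itga1, another collagen receptor subunit, was at 26.6 ± 3.56 CPM against 279 ± 19.2 CPM (FDR = 0.000437), and Itga3 at 2.09 ± 1.35 CPM against 14.5 ± 1.04 CPM (FDR = 0.00611). Between Itga8+ MSCs and Itga8-Alcam+ BLCs a single one of the 18 was called, Itga7, lower in Itga8+ MSCs (log2 fold change -4.71, FDR = 0.0512), a share of 5.56% that is close to the 3.82% of all genes. Itga7, named after its values had been seen, was at 3.14, 19.0 and 2.098 CPM in the BLCs and at 0.346, 0 and 0.578 CPM in Itga8+ MSCs, so the fold rests on uneven libraries. Of 37 genes of the adhesion machinery that links integrins to actin, 36 were tested. Of these, 3 were called higher and 4 lower in Sca-1+ than in CD51+CD140a+ MSCs, 19.4% against 20.5% of all genes and so no more often than genes at large, with a median log2 fold change of -0.21, among them Lims2 (log2 fold change 4.91, FDR = 3.7e-06), Fyn (3.49, FDR = 0.000101), Tns3 (-3.33, FDR = 0.000345) and Tln2 (-1.91, FDR = 0.00147). Between Itga8+ MSCs and Itga8-Alcam+ BLCs, 1 was called higher, Tln2, a talin that activates integrins (log2 fold change 1.61, FDR = 0.0217), and 1 lower, the kinase Fyn (-1.93, FDR = 0.0213), 5.56% against 3.82% of all genes.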

How the data were processed

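The authors made cDNA from 2000 sorted cells per library with a SMART-Seq kit and sequenced Nextera XT libraries. They deposited unnormalised read counts for each Ensembl gene, as the authors' raw count, in 1 file for each of 12 libraries. The study's methods name TopHat and Bowtie2 on mm10. The submitters' processing notes instead list FastQC 0.11.7, Trimmomatic 0.38, HISAT2 2.1.0, SAMtools 1.9 and featureCounts 1.6.3. Annotation release and use of strand are not given in the sources used here. PCR copies cannot be told from separate molecules.

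Populations and replicate numbers came from the labels. Identifiers were matched to GENCODE M21 (49326 of 49585), and TPM used its merged exon lengths. All 12 libraries were fitted with edgeR 4.0.16 (R 4.3.3, limma 3.58.1) with TMM scaling and Benjamini-Hochberg adjustment over 18648 genes. Python 3.11.15 and scipy 1.17.1 gave shares, correlations and permutation tests. The fit was tested on simulated data: with 200 genes changed in the comparison of Sca-1+ with CD51+CD140a+ MSCs, over 17609 genes, 92% of 8-fold, 50% of 4-fold and 14% of 3-fold changes were called, with 7 false calls. Between Itga8+ MSCs and Itga8-Alcam+ BLCs, over 17735 genes, these shares were 86%, 34% and 24%, with 3 false calls.

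Alternatives were scaling by RLE or by library totals, a looser filter (1 count) and a stricter one (10 counts in 3 libraries), DESeq2 1.42.0, a fit of only the 6 libraries compared, a replicate block, a stricter FDR of 0.05, and leaving out each library in turn. For the shares, CPM replaced TPM. Added after the data had been seen were both doubted libraries left out, and trends with gene length, or with length and GC content, removed. The text names all 8 subunits, the 3 genes most correlated with each, and from each list at most 4 called genes of largest fold change with at least 10 CPM. Npnt, Itga7 and Itga2b fall outside this rule and were named after their values had been seen. The subunits and lists were chosen with earlier results of these data known.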

Additional observations from a re-analysis of the deposited data

How the results depend on the processing

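Of 1041 recomputed log2 fold changes of the 8 subunits, 951 kept their direction and side of the thresholds, and the 27 that changed direction had not been called. With library totals alone, 3 subunits were called between Itga8+ and CD51+CD140a+ MSCs and 4 between Itga8-Alcam+ BLCs and CD51+CD140a+ MSCs, and a fit of only the 6 libraries compared gave 4 in the latter. DESeq2 called 2 between Itga8+ MSCs and the BLCs, 2 between Itga8+ and CD51+CD140a+ MSCs, and 1 between the BLCs and Sca-1+ MSCs, where an FDR under 0.05 also gave 1. With both doubted libraries left out, 2 were called between Itga8+ MSCs and the BLCs and 3 between Itga8+ and CD51+CD140a+ MSCs. With length and GC trends removed, 2 were called between Itga8+ MSCs and the BLCs. Counting CPM in place of TPM, the Itga8 share in Sca-1+ MSCs was 0.293%. The causes of these shifts were not tested.

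In none of the 6 comparisons did all 3 same-numbered pairs of libraries deviate together with r over 0.1, and r ranged from -0.736 to 0.342. It was above 0 for every pair in 2 comparisons, Itga8+ with CD51+CD140a+ MSCs (0.011 to 0.293) and the BLCs with Sca-1+ MSCs (0.078 to 0.262). The numbers were therefore not taken to pair the libraries. With the replicate block, the Itgb3 calls of both Itga8-sorted populations against Sca-1+ MSCs and the Itgb6 call were lost, which left 1 subunit called between the BLCs and Sca-1+ MSCs and 2 between Itga8+ and Sca-1+ MSCs. The Itgb1 log2 fold change between Itga8+ MSCs and the BLCs was then -0.029. All genes called between Itga8+ MSCs and the BLCs numbered 712, but 433 with the block, 464 at an FDR under 0.05, 276 in a fit of only 6 libraries and 1203 by DESeq2.

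Direction changed for Itga5 between Itga8+ MSCs and the BLCs with library totals alone (log2 fold change 0.13) and without both doubted libraries (0.016), for Itgb1 there with length and GC trends removed (-0.0099), for Itgb3 between Itga8+ and CD51+CD140a+ MSCs with library totals alone (-0.0090), and for Itga8 between the BLCs and Sca-1+ MSCs without both doubted libraries (0.013).

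With each library left out in turn, subunits called ranged from 1 to 2 between Itga8+ MSCs and the BLCs, 2 to 7 between Itga8+ and Sca-1+ MSCs, 1 to 3 between Itga8+ and CD51+CD140a+ MSCs, 1 to 5 between the BLCs and Sca-1+ MSCs, 2 to 4 between the BLCs and CD51+CD140a+ MSCs, and 3 to 6 between Sca-1+ and CD51+CD140a+ MSCs. These counts are over all 8 subunits, with Itgb6 among the 6, and include Itga8 where the gates set it. In the same order, all genes called ranged from 433 to 886, 2386 to 5878 and 5063 to 8003. For the last 3 comparisons they ranged from 3530 to 5904, 5159 to 7391 and 2978 to 4368. Log2 fold changes between Itga8+ MSCs and the BLCs then ranged from -1.39 to 1.47 for Itgav, -0.68 to 0.47 for Itga5, -0.48 to 0.34 for Itgb1, -1.36 to 1.72 for Itgb3, -1.49 to 1.11 for Itgb6 and -2.66 to 0.51 for Itgb8. Those of Itga8 ranged from -0.24 to 1.11 between Itga8+ and CD51+CD140a+ MSCs and from -2.15 to 0.055 between the BLCs and Sca-1+ MSCs. Those of Itgb3 ranged from -0.61 to 0.66 between Itga8+ and CD51+CD140a+ MSCs and from -1.62 to 1.33 between the BLCs and CD51+CD140a+ MSCs.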
